A study of Rattus norvegicus with 8 samples.

Results

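The genes described here are 42 genes of the lysosome: cathepsins and other acid hydrolases, the proteins that assist or inhibit them, the glycoproteins and transport proteins of the lysosomal membrane, and regulators of the organelle. Each gene was read by the probe set that names it alone and has the highest mean signal over the arrays. This rule found 40 of the 42 genes, among 14217 genes that can be read in this way, and 38 of the 40 were bright enough to be tested. Npc1 and Sgsh have no such probe set, so their expression was not read and only their promoters were searched. The list was chosen with earlier results of these data known, so its counts describe it and are not independent evidence of a direction.

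The RNA came from the basolateral amygdala of rats, that is its basal and lateral nuclei, cut by laser from stained sections of the temporal lobe on the electrode side. Rats called epileptogenic had been stimulated through an amygdala electrode, went through status epilepticus and showed no spontaneous seizures during the study. Control rats had the electrode operation and were not stimulated. All rats, controls included, were habituated to a conditioning chamber and on day 8 after stimulation received 2 trials with a 75 dB tone of 20 s and a 1.5 mA footshock of 1 s. In the paired groups the tone ended together with the shock, and in the unpaired groups the shock came before the tone. Tissue was taken 3 h later, so no group is untrained or free of shock. Each of the 4 groups (control unpaired, control paired, epileptogenic unpaired, epileptogenic paired) had 4 rats on 2 arrays labelled A and B. An array held amplified RNA pooled from 2 rats, so 8 arrays stand for 16 rats and no value belongs to a single animal. The labels used here name no strain, sex or age.

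Lysosomes are acidic organelles in which hydrolases break down material taken up from outside the cell or delivered by autophagy. Most of the enzymes are made as inactive precursors, are sorted by mannose 6-phosphate receptors and become active at the low pH that a proton pump maintains. In the brain all cell types have lysosomes, and microglia and macrophages, which engulf debris, are known for high levels of several cathepsins and of Cd68. Transcription factors of the TFEB family bind E-box motifs in the promoters of many lysosomal genes.

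The promoters of several of these genes show that motif, and a few are printed because they hold it and their genes read differently on the arrays. RefSeq promoter windows (assembly GRCr8, 250 bases before to 50 after the gene start) were found for 37 of the 42 genes, with Asah1, Ctsb, Hexa, Ppt1 and Psap missing from the table. The E-box CACGTG, which reads the same on both strands, occurs in 9 of the 37 windows (24.3%), against 6.65% of all 27457 windows of this length. The longer form GTCACGTG or its reverse complement CACGTGAC, which contains the E-box, occurs in 7 (18.9%) against 2.02%. The 8 letters TCACGTGA, which contain the E-box too, occur in 4 (10.8%) against 0.867%. Sequences run 5′ to 3′ on the gene's strand, and the E-boxes are in capitals.
Lamp1, chr16:83075084-83075258, minus strand: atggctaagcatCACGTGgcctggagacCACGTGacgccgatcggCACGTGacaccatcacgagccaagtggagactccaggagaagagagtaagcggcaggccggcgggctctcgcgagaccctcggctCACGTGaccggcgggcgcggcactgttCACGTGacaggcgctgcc
Ctsd, chr1:206968822-206968990, minus strand: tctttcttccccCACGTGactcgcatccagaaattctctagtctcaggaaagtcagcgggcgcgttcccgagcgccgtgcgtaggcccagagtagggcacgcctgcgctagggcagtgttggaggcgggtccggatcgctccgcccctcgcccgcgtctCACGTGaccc
Cd63, chr7:1921942-1921971, plus strand: ccgggcagcggcCACGTGgcctgtccaggc
Gaa, chr10:105028276-105028305, plus strand: ccgcccacaaacCACGTGacccacgctgcc
Mcoln1, chr12:6358224-6358253, plus strand: cgtcaagcttgtCACGTGttcgacccaggc

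Lamp1 holds 5 E-boxes before its start, Ctsd holds 2, and Cd63 and Gaa hold 1 each, while the Mcoln1 window holds a second one after the start. The motif was also counted by the calls described below. It occurs in 3 of 19 windows of genes that were higher in epileptogenic rats (Ctsd, Cd63, Lamp1), in 4 of 14 that did not pass (Ctsf, Glb1, Gaa, Mcoln1) and in 2 of 4 that were not tested (Cln3, Sgsh). A motif of PU.1, a transcription factor of microglia and other myeloid cells, was searched as GAGGAAGT or its reverse complement ACTTCCTC. It occurs in 3 of the 37 windows (8.11%; Ctsc, Ctss, Gla) against 2.44% of all, and the site of Ctss lies 17 bases before the start, here in capitals.
Ctss, chr2:185775362-185775395, plus strand: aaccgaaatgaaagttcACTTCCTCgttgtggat

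The values below are log2 of the deposited signal, so a difference of 1 is a doubling. They compare arrays within a probe set and never levels between genes. The array medians lay between signals of 29.0 and 43.2, correlations between arrays were 0.850 to 0.925, and no arrays were identical. Most markers of neurons with a probe set lay above the filter on dim probe sets. Means below it were found for 1 of 9 markers of basolateral amygdala neurons and 2 of 24 markers of neurons in general. The same held for 3 of 11 markers of striatal and central amygdala neurons. The genes named next had control means above the filter. Lmo3 and Neurod6, both found in basolateral amygdala neurons, had control means of 10.20 ± 0.38 and 8.34 ± 0.37 (SD, n = 4 arrays). Slc17a7, the vesicular glutamate transporter of cortical-type neurons, had 5.43 ± 0.21, and Drd1, a receptor of striatal and central amygdala neurons, had 8.72 ± 0.38 (SD, n = 4). Summed over 11 markers of striatal and central amygdala neurons, signal was higher on A than on B in every group. The A and B sums were 4497 and 2864, then 3369 and 2677, in control unpaired and paired arrays. In epileptogenic arrays they were 4482 and 1677, then 4722 and 2744. For 7 markers of choroid plexus and ependyma the sums ran from 357 to 5360 on control and from 716 to 5261 on epileptogenic arrays. The cause was not tested.

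Lysosomal genes were mostly higher 8 days after status epilepticus. Of the 38 genes tested, 21 were higher in the 4 epileptogenic arrays than in the 4 control arrays, 0 were lower and 17 did not pass (limma, adjusted p under 0.05 over all 18625 probe sets tested). Among all probe sets tested 2.81% were higher and 0.827% were lower. The 21 include Cd68, whose control mean lay below the filter on dim probe sets, and without it 20 of 37 were higher. With the array letter as a block, 27 of the 38 were higher, against 7.58% of all probe sets, and 0 were lower, against 8.65%. The median difference of the 38 genes was 1.12, and 1.04 without Cd68, against -0.11 over all probe sets. Of the 21 genes, 19 differed by more than 1 and 6 by more than 2 on the log2 scale, against 4.76% and 0.832% of all probe sets, called or not. In 25 genes all 4 epileptogenic arrays lay above all 4 control arrays (7.29% of all probe sets), in 1 they all lay below (7.77%), and in 12 the groups overlapped. Cd68 is counted among the 19, the 6 and the 25. The difference was positive in 35 genes, against 39.8% of all probe sets, and in 32 it was positive among both the A and the B arrays, with medians of 0.97 and 1.28.

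**Figure D1:**
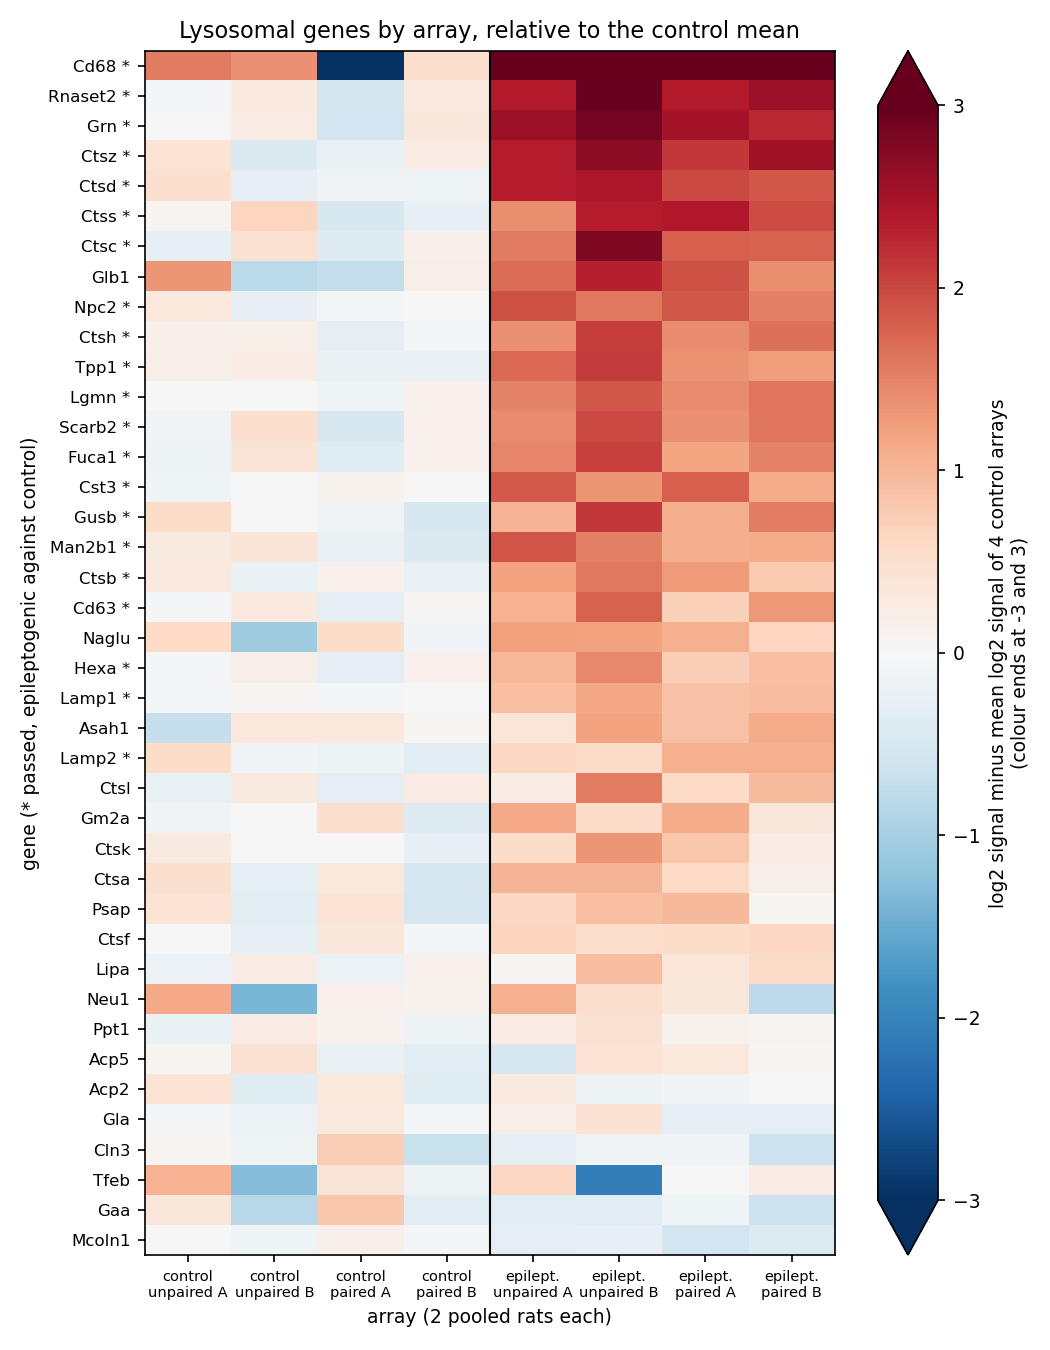
Log2 signal of the 40 measured lysosomal genes (rows, ordered by difference) on each of the 8 arrays (columns), relative to the gene's mean over the 4 control arrays. The 21 genes with an asterisk passed the test between epileptogenic and control rats, and the 4 right-hand columns are red for nearly all rows above the last few.

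Leaving out 1 array at a time left 11 of the 21 genes higher in all 8 fits: Rnaset2, Grn, Ctsz, Ctsd, Ctss, Npc2, Ctsh, Tpp1, Lgmn, Fuca1 and Cst3. The count fell to 13 without control paired A and to 12 without epileptogenic unpaired B, and lay between 15 and 20 without any of the other arrays. The array epileptogenic unpaired B gave the highest of the 4 epileptogenic values in 25 of 38 genes. Relative to the control mean its median was 1.48, against 1.08, 1.08 and 1.09 on epileptogenic unpaired A, paired A and paired B.

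Cysteine proteases include most of the cathepsins. Of 9 genes tested, 6 were higher (Ctsz, Ctss, Ctsc, Ctsh, Lgmn, Ctsb), 0 were lower and 3 did not pass (Ctsl, Ctsk, Ctsf), with a median difference of 1.60. Ctsz encodes cathepsin Z, a carboxypeptidase. It read 6.24 and 5.39 (A and B) in control unpaired, 5.61 and 6.05 in control paired, 8.17 and 8.51 in epileptogenic unpaired and 7.94 and 8.37 in epileptogenic paired arrays. The lowest epileptogenic value exceeded the highest control value by 1.70, and the difference was 2.43 ± 0.26 (SE; limma adjusted p = 0.00241), or 5.39-fold. Ctss, cathepsin S, remains active at neutral pH and trims the invariant chain during antigen presentation. Its control values were 10.01 and 10.58 after unpaired and 9.46 and 9.70 after paired training, against 11.33 and 12.29 and then 12.35 and 11.89 in epileptogenic rats. All 4 epileptogenic arrays were above the controls, and the difference was 2.02 ± 0.25 (adjusted p = 0.00400). Ctsc, cathepsin C or dipeptidyl peptidase 1, activates serine proteases of granules. A second, dimmer Ctsc probe set differed by 2.14 and did not pass (limma adjusted p = 0.0653). The probe set read for Ctsc had 5.30 and 5.99, then 5.15 and 5.69, in the control unpaired and paired arrays. It had 7.10 and 8.33, then 7.33 and 7.29, in the epileptogenic ones. Epileptogenic unpaired B was the highest, and the difference was 1.98 ± 0.32 (adjusted p = 0.0124, but 0.0525 without control paired A).

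Ctsh, cathepsin H, is an aminopeptidase. It read 7.43 and 7.44 in control unpaired, 6.97 and 7.24 in control paired, 8.63 and 9.34 in epileptogenic unpaired and 8.70 and 8.92 in epileptogenic paired arrays. The groups were apart by 1.19, and the difference was 1.63 ± 0.22 (limma adjusted p = 0.00538). Lgmn, legumain or asparaginyl endopeptidase, cuts other cathepsins into their mature chains. Its 4 control values were nearly equal at 8.27, 8.28, 8.15 and 8.41, and its epileptogenic values were 9.77, 10.14, 9.69 and 9.89, in the order unpaired A and B, paired A and B. The difference was 1.60 ± 0.18 (adjusted p = 0.00309), or 3.02-fold. Ctsb, cathepsin B, was higher by 1.21 ± 0.21 (adjusted p = 0.0159), a call that did not hold without control unpaired B, control paired B, epileptogenic unpaired B or epileptogenic paired A (adjusted p 0.0505 to 0.0726). Of the 3 that did not pass, Ctsl (cathepsin L) differed by 0.83 ± 0.29 (adjusted p = 0.170), Ctsk (cathepsin K) by 0.73 and Ctsf (cathepsin F) by 0.59. With the letter as a block Ctsl and Ctsf passed, at adjusted p = 0.00839 and 0.0329. A second Ctsl probe set differed by 1.36 and passed in the fit without the block (adjusted p = 0.00400), as did Ctsl itself without epileptogenic unpaired A (1.15, adjusted p = 0.0474).

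Proteases of other classes were Ctsd, Tpp1 and Ctsa. Ctsd, cathepsin D, is the main aspartic protease of the lysosome. It read 8.97 and 8.24 in control unpaired, 8.40 and 8.37 in control paired, 10.84 and 10.93 in epileptogenic unpaired and 10.48 and 10.35 in epileptogenic paired arrays. The groups were apart by 1.38, and the difference was 2.15 ± 0.20 (limma adjusted p = 0.00213), or 4.45-fold. Tpp1, tripeptidyl peptidase 1, is a serine protease whose loss causes a childhood ceroid lipofuscinosis. Its control values of 6.99, 7.02, 6.61 and 6.61 (unpaired A and B, paired A and B) lay below its epileptogenic values of 8.50, 8.90, 8.16 and 8.05. The difference was 1.60 ± 0.19 (adjusted p = 0.00400). Ctsa, the protective protein that stabilises beta-galactosidase and neuraminidase, differed by 0.70 with overlapping groups (adjusted p = 0.178, and 0.0151 with the letter as a block).

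Cst3, cystatin C, is a secreted inhibitor of cysteine cathepsins. On the linear scale its control arrays were tightly grouped, with signals of 1093, 1193, 1271 and 1197. The epileptogenic arrays had signals of 4274 and 2958 (A and B) after unpaired and 4090 and 2576 after paired training, so both A arrays were above both B arrays. The log2 difference was 1.52 ± 0.20 (limma adjusted p = 0.00509), or 2.86-fold, so a protease inhibitor was higher alongside the proteases. Of 13 further inhibitors of cysteine proteases and related serpins, 9 had a probe set and 3 were bright enough to be tested. Among these 3, 1 was higher, Serpinb1a, an inhibitor of neutrophil serine proteases (2.51 ± 0.32, limma adjusted p = 0.00419). The others differed by 0.34 and -1.12 and did not pass, so the 3 did not share a direction.

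**Figure D2:**
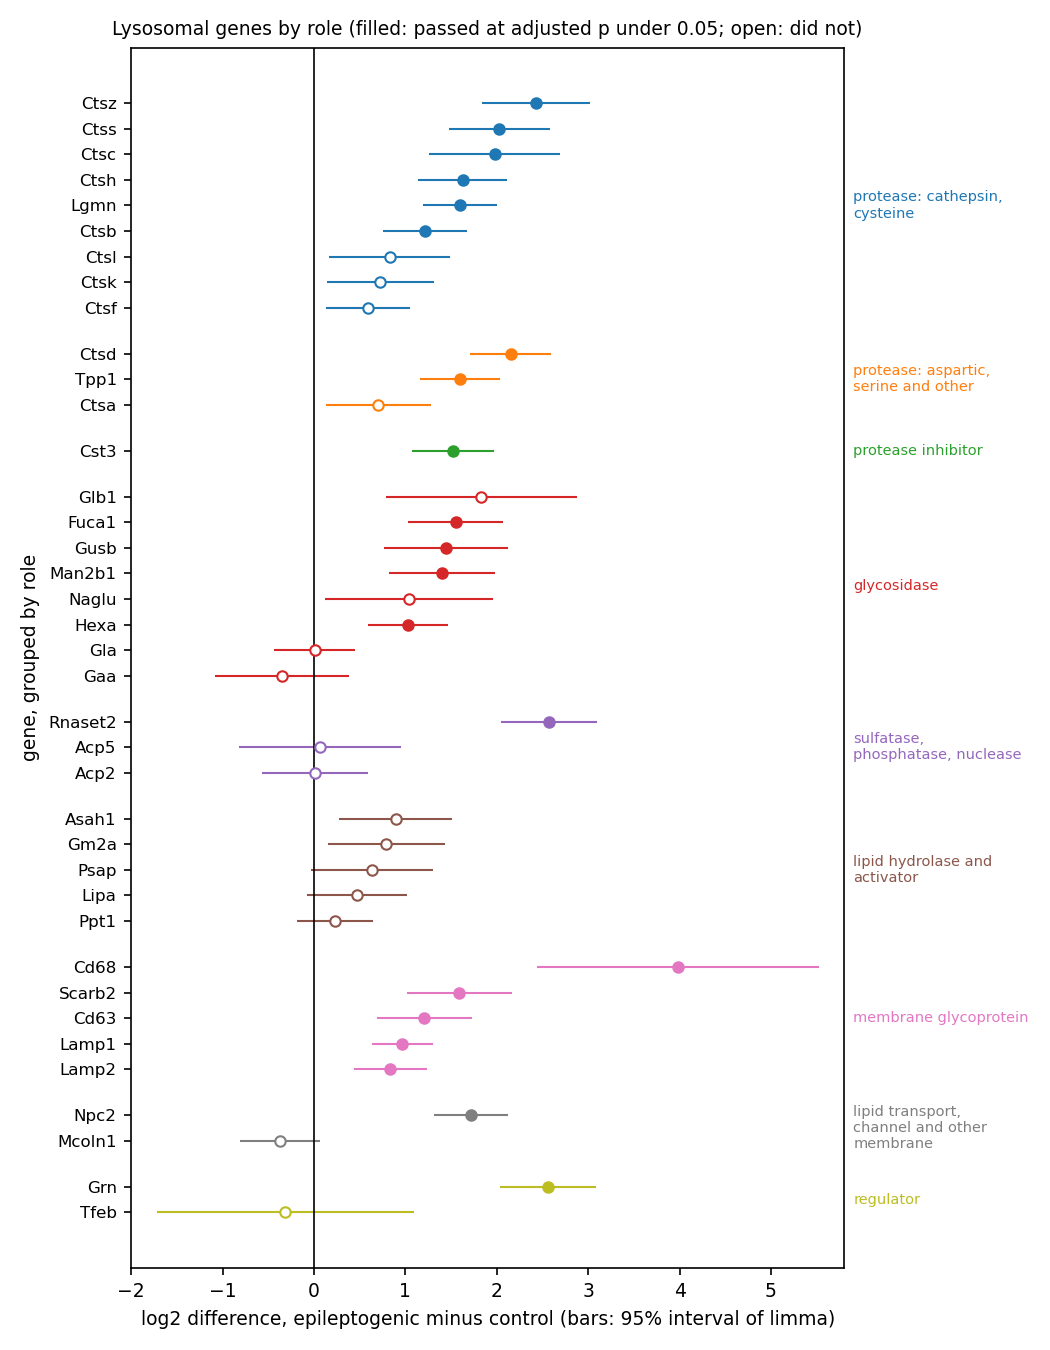
Log2 difference of each of the 38 tested genes, epileptogenic minus control (horizontal axis; bars are 95% intervals from limma), grouped by role. Filled points passed at an adjusted p under 0.05: 6 of 9 cysteine proteases and 5 of 5 membrane glycoproteins (Cd68 included) are filled, and 0 of 5 lipid hydrolases and activators.

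Glycosidases, which remove sugars from glycoproteins and glycolipids, were divided. Of 8 tested, 4 were higher (Fuca1, Gusb, Man2b1, Hexa), 0 were lower and 4 did not pass (Glb1, Naglu, Gla, Gaa), with a median difference of 1.22. Fuca1 encodes alpha-L-fucosidase. It read 7.87 and 8.40 in control unpaired, 7.66 and 8.16 in control paired, 9.50 and 10.07 in epileptogenic unpaired and 9.20 and 9.52 in epileptogenic paired arrays. In each group B was above A, and the difference was 1.55 ± 0.23 (limma adjusted p = 0.00855). Gusb, beta-glucuronidase, read 6.17, 5.64, 5.53 and 5.15 in controls (unpaired A and B, paired A and B) and 6.63, 7.75, 6.72 and 7.16 in epileptogenic rats. The groups were apart by 0.47, with a difference of 1.45 ± 0.30 (adjusted p = 0.0350). Man2b1, lysosomal alpha-mannosidase, read 5.12, 5.22, 4.63 and 4.41 in controls and 6.72, 6.36, 5.93 and 5.96 in epileptogenic rats, in the same order. No array overlapped with the other group, and over both trainings the difference was 1.40 ± 0.26 (limma adjusted p = 0.0208). A second Man2b1 probe set, too dim to be tested, differed by -0.42. Hexa, the alpha chain of beta-hexosaminidase, was higher by 1.02 ± 0.20 (adjusted p = 0.0239).

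Other than Fuca1, the calls of these glycosidases were often lost when an array was left out, while their differences stayed positive. Man2b1 did not pass in any of the 8 fits without an array (adjusted p 0.0546 to 0.0774, differences 1.31 to 1.49). Gusb passed in 1 of 8, without epileptogenic unpaired A, and Hexa in 2 of 8, without control paired B or epileptogenic unpaired A. Elsewhere the adjusted p was 0.0595 to 0.116 for Gusb and 0.0584 to 0.0996 for Hexa, and over the 8 fits the differences were 1.17 to 1.72 and 0.91 to 1.14. Glb1, beta-galactosidase, had one of the larger differences, 1.83 ± 0.46, but its controls were spread at 6.23, 4.09, 4.19 and 5.08, with control unpaired A close to the epileptogenic arrays at 6.58, 7.22, 6.82 and 6.29. Its adjusted p was 0.0675, 0.0200 with the letter as a block and 0.0156 without control unpaired A. Naglu, alpha-N-acetylglucosaminidase, differed by 1.04 ± 0.41 (limma adjusted p = 0.213). Its groups did not overlap but came within 0.05 of each other. Control unpaired B was low at 3.63, and without it the Naglu difference was 0.62.

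Gaa and Gla did not follow the rest. Gaa, the acid alpha-glucosidase that degrades glycogen, read 9.11 and 7.92 in control unpaired, 9.58 and 8.44 in control paired, 8.45 and 8.43 in epileptogenic unpaired and 8.63 and 8.15 in epileptogenic paired arrays. The controls spanned the whole epileptogenic range, and the difference was -0.35 ± 0.33 (limma adjusted p = 0.626). A second Gaa probe set differed by -1.04 (adjusted p = 0.165). Gla, alpha-galactosidase A, read 7.28, 7.16, 7.64 and 7.29 in controls and 7.54, 7.77, 7.04 and 7.04 in epileptogenic rats (unpaired A and B, paired A and B). Epileptogenic arrays were the higher ones after unpaired training and the lower ones after paired training, which gave a difference of 0.01 ± 0.20 (adjusted p = 0.990, 95% interval -0.44 to 0.45). Neu1, the sialidase, was too dim to be tested, with 5.15, 2.63, 4.12 and 4.11 in controls and 5.06, 4.54, 4.35 and 3.22 in epileptogenic rats. These values overlapped, and a two-sided exact permutation test over 70 assignments of the arrays gave p = 0.629 for a difference of 0.29, where 0.0286 is the smallest it can give.

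Rnaset2 had the largest difference among the 37 genes whose control mean was above the filter. It encodes an acid ribonuclease. Its control values of 8.87 and 9.21 after unpaired and 8.36 and 9.20 after paired training compare with 11.28 and 11.87, and 11.28 and 11.48, in epileptogenic rats. The groups were apart by 2.07, and the difference was 2.57 ± 0.23 (limma adjusted p = 0.00213), or 5.94-fold. The acid phosphatases differed little: Acp5 (tartrate-resistant, known from osteoclasts and macrophages) by 0.07 and Acp2 by 0.01, with adjusted p = 0.950 and 0.989 and 95% intervals of -0.82 to 0.95 and -0.57 to 0.59.

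Lipid hydrolases and their activators had smaller differences, all positive and none past the test. Of the 5 genes tested, Asah1 (acid ceramidase) differed by 0.89, Gm2a (GM2 activator) by 0.79, Psap (prosaposin, precursor of the saposins) by 0.63, Lipa (lysosomal acid lipase) by 0.47 and Ppt1 (palmitoyl-protein thioesterase) by 0.23. Their limma adjusted p ran from 0.121 to 0.564. With the letter as a block Asah1 and Gm2a passed (adjusted p = 0.0164 and 0.0248). A second, dimmer Asah1 probe set differed by 0.05. The 95% intervals of Asah1 (0.27 to 1.51) and Psap (-0.03 to 1.30) include a doubling, so these data do not separate a small change from one the size of Hexa.

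All 5 membrane glycoproteins were higher. Cd68 is a lamp-family protein of macrophage lysosomes. It read 5.69 and 5.49 in control unpaired, 0.70 and 4.62 in control paired, 8.09 and 8.64 in epileptogenic unpaired and 7.88 and 7.82 in epileptogenic paired arrays. Epileptogenic values were close together, while control paired A was far below the other controls. The control mean of 4.12 lay below the filter on dim probe sets, so Cd68 was tested only because its epileptogenic arrays are bright, and the size of its difference is uncertain. The fitted difference was 3.98 ± 0.68 (limma adjusted p = 0.0165) and 3.00 without control paired A, and it is not ranked against the other genes. The call did not hold without epileptogenic unpaired B or epileptogenic paired A (adjusted p = 0.0734 and 0.0568). Scarb2, also called LIMP-2, carries beta-glucocerebrosidase to the lysosome. It read 6.08, 6.67, 5.70 and 6.31 in controls and 7.60, 8.16, 7.56 and 7.80 in epileptogenic rats (unpaired A and B, paired A and B). B was above A in every group, and the difference was 1.59 ± 0.25 (adjusted p = 0.0122, but 0.0515 without control paired A and 0.0581 without epileptogenic unpaired B).

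Lamp1 and Lamp2 coat the inner face of the lysosomal membrane. Lamp1 was very even, from 10.25 to 10.33 in controls and from 11.16 to 11.45 in epileptogenic rats, and was higher by 0.97 ± 0.15 (limma adjusted p = 0.0105, but 0.0520 without control paired A and 0.0527 without epileptogenic unpaired B). Further probe sets of Lamp1 were too dim to be tested. Lamp2 read 11.11 and 10.48 in control unpaired, 10.40 and 10.21 in control paired, 11.18 and 11.13 in epileptogenic unpaired and 11.62 and 11.61 in epileptogenic paired arrays. Control unpaired A came within 0.02 of the lowest epileptogenic array, and the difference was 0.83 ± 0.18 (adjusted p = 0.0373), a call kept in 1 of 8 fits without an array, the one without control unpaired A (0.0863 to 0.119 in the other 7). Its other probe set differed by 1.57 (adjusted p = 0.00293). Cd63, a tetraspanin of late endosomes and exosomes, was higher by 1.21 ± 0.23 (adjusted p = 0.0243), and passed in 2 of 8 such fits, without epileptogenic unpaired A or paired A (0.0524 to 0.0967 in the others).

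Npc2 and Mcoln1, which act in transport, read differently. Npc2, a soluble protein that hands cholesterol to the membrane protein Npc1, read 11.02, 10.46, 10.65 and 10.68 in controls and 12.61, 12.28, 12.55 and 12.22 in epileptogenic rats (unpaired A and B, paired A and B). The groups were apart by 1.20, and the difference was 1.72 ± 0.18 (limma adjusted p = 0.00237). Mcoln1, the calcium channel TRPML1, is the gene whose epileptogenic arrays all lay below the controls: 6.87, 6.88, 6.58 and 6.73 against 7.13, 7.02, 7.30 and 7.12. The difference was small, -0.38 ± 0.19, and did not pass (adjusted p = 0.342). Cln3, a membrane protein of juvenile ceroid lipofuscinosis, was too dim to be tested. It read 4.37, 4.15, 5.02 and 3.63 in controls and 4.00, 4.18, 4.22 and 3.65 in epileptogenic rats, with full overlap (difference -0.28, two-sided exact permutation p = 0.457).

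The regulators Grn and Tfeb also differed from each other. Grn, progranulin, is a secreted and lysosomal glycoprotein needed for normal hydrolase activity. It read 7.75 and 8.00 in control unpaired, 7.17 and 8.08 in control paired, 10.35 and 10.63 in epileptogenic unpaired and 10.26 and 10.01 in epileptogenic paired arrays. The groups were apart by 1.93, and the difference was 2.56 ± 0.23 (limma adjusted p = 0.00213), or 5.89-fold. Tfeb, a transcription factor of lysosomal genes, read 7.67, 5.33, 7.00 and 6.48 in controls and 7.23, 4.55, 6.60 and 6.84 in epileptogenic rats (unpaired A and B, paired A and B). The groups overlapped throughout, and the difference of -0.31 ± 0.62 has a 95% interval of -1.72 to 1.09 (limma adjusted p = 0.839). No change of Tfeb mRNA was detected, and a change within this interval in either direction could have been missed. Without epileptogenic unpaired B the Tfeb difference was 0.36.

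**Figure D3:**
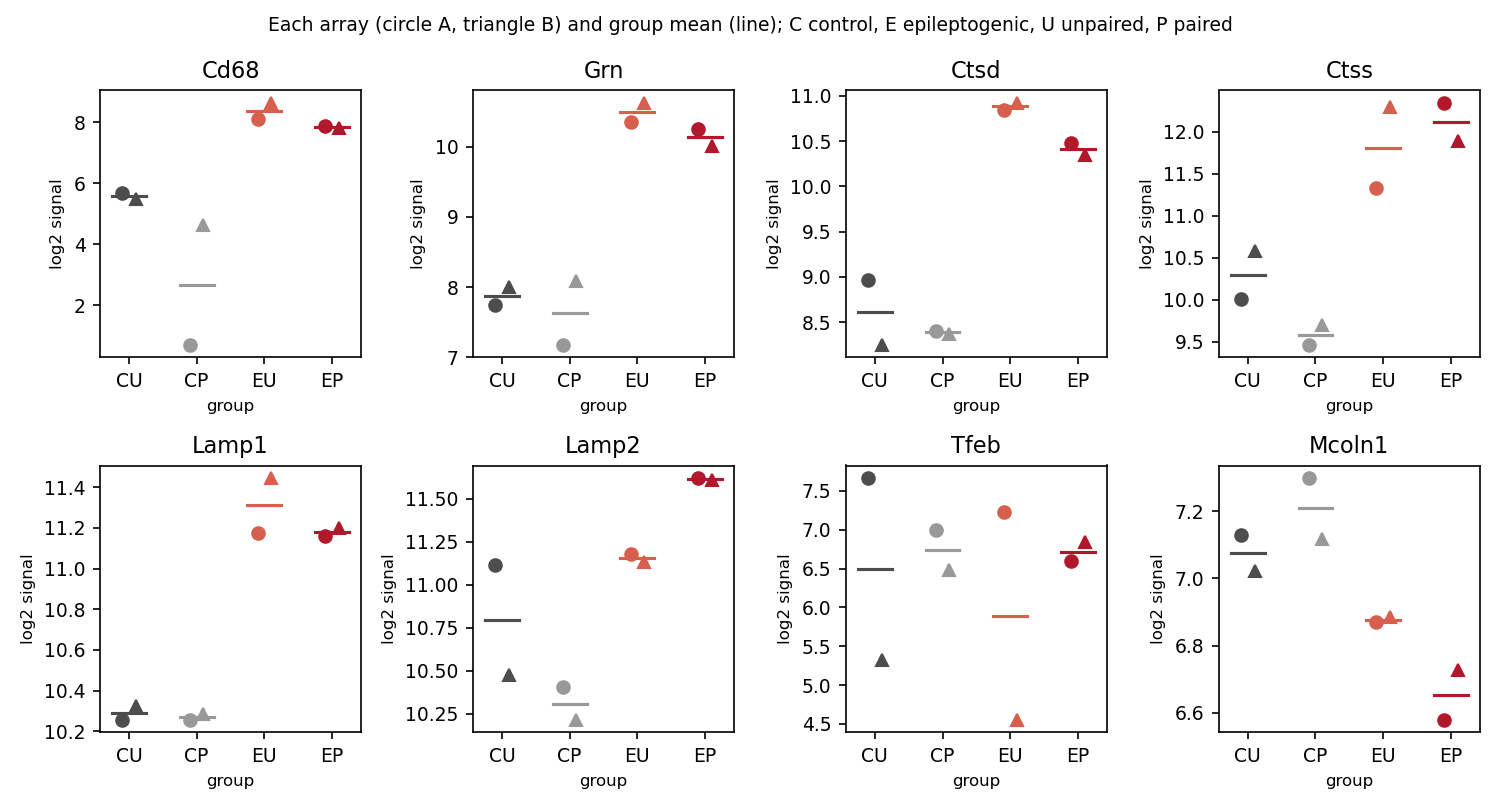
Log2 signal of 8 lysosomal genes on every array (circle A, triangle B; line is the group mean; CU control unpaired, CP control paired, EU epileptogenic unpaired, EP epileptogenic paired; each panel has its own vertical scale). In Cd68, Grn, Ctsd, Ctss, Lamp1 and Lamp2 all epileptogenic points lie above all control points, in Mcoln1 they lie below, and in Tfeb they overlap.

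The difference between epileptogenic and control rats was then read within each training, with 2 arrays against 2. After unpaired training 7 genes were higher (Ctsd, Grn, Rnaset2, Ctsz, Npc2, Lgmn, Tpp1), 0 were lower and 31 did not pass, against 0.29% of all probe sets higher and 0.0268% lower. After paired training 7 were higher as well (Rnaset2, Grn, Ctss, Ctsd, Npc2, Ctsz, Lgmn) and 0 were lower, against 0.521% and 0.0107%. Of these, 6 passed in both. With the letter as a block 19 and 21 genes were higher, against 3.4% and 3.45% of all probe sets, and 0 were lower in either, against 3.61% and 1.17%. Both counts fell to 0 when an array of the training itself was left out, with the exception of control paired B, without which 3 genes were higher after paired training. Median differences were 1.28 and 1.11, against -0.14 and -0.06 over all probe sets. Grn differed by 2.61 ± 0.33 after unpaired and 2.51 ± 0.33 after paired training, Rnaset2 by 2.54 ± 0.33 and 2.60 ± 0.33, and Ctsd by 2.28 ± 0.28 and 2.03 ± 0.28. The differences between the trainings for these genes were -0.10 ± 0.46, 0.07 ± 0.47 and -0.25 ± 0.39.

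**Figure D4:**
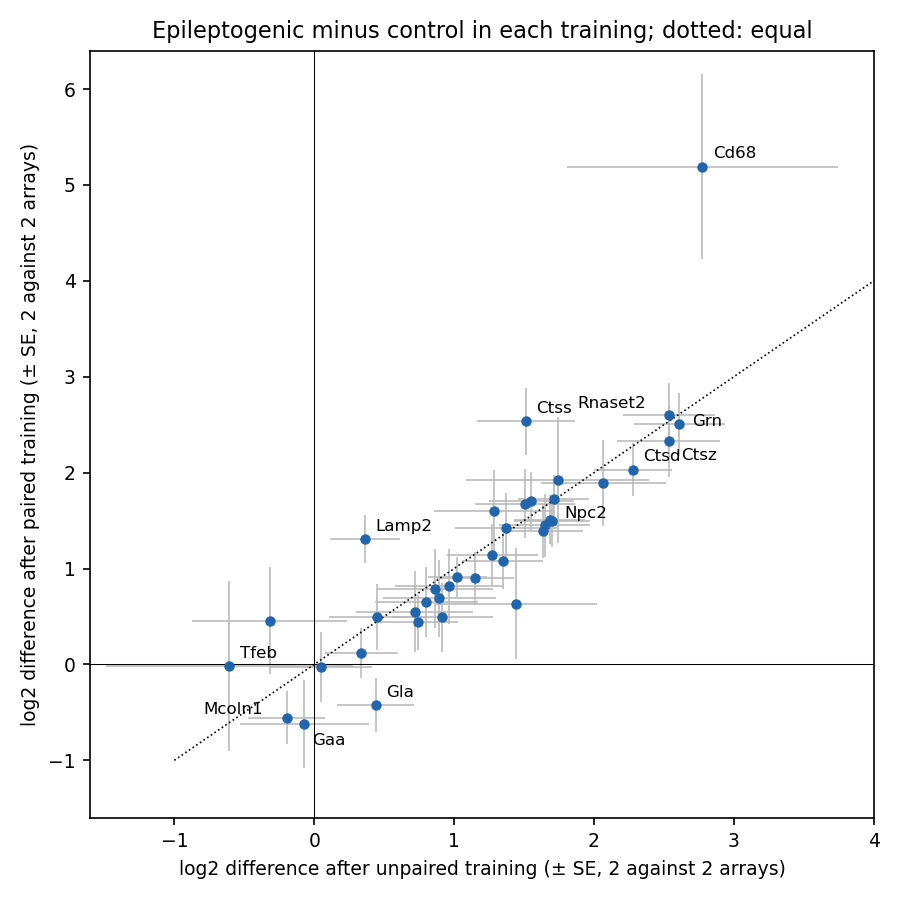
Log2 difference between epileptogenic and control rats after unpaired (horizontal) and after paired training (vertical) for the 38 tested genes, each from 2 against 2 arrays, with standard errors. The dotted line marks equal differences: 13 genes lie above it, among them Cd68, Ctss and Lamp2, and the rest lie below.

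Whether training changed the epileptogenic difference was tested by the interaction, and no gene passed. The 3 largest interactions in size were those of Cd68 (2.42 ± 1.37), Ctss (1.02 ± 0.49) and Lamp2 (0.95 ± 0.35), all towards a larger difference after paired training. Cd68 differed by 2.77 ± 0.97 after unpaired and 5.19 ± 0.97 after paired training, with the low value of control paired A in the latter. Ctss differed by 1.51 ± 0.35 and 2.54 ± 0.35, and Lamp2 by 0.36 ± 0.25 and 1.31 ± 0.25. The adjusted p of each from the limma fit was 1.00. Without adjustment 1 gene passed 0.05, Lamp2, at 0.0251, as did 1.47% of all probe sets. Among all 18625 probe sets 0 passed with or without the block.

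No gene passed for the training itself. Paired against unpaired, 0 of 38 genes passed over all rats, within control rats or within epileptogenic rats (limma), and 0 of 18625 probe sets did, with and without the block. At an unadjusted p under 0.05 there were 3, 1 and 0 genes, against 1.15%, 1.68% and 1.22% of all probe sets. The 3 genes over all rats were lower after paired training: Tpp1 by -0.49 ± 0.19, Man2b1 by -0.62 ± 0.26 and Cd68 by -1.72 ± 0.68. The Cd68 value came mostly from the controls, with -2.93 ± 0.97 there and -0.51 ± 0.97 in epileptogenic rats, and control paired A held the low signal given above. Over all rats 33 of the 38 differences were negative, against 53.7% of all probe sets, with a median of -0.18 against -0.02 for all probe sets. The medians within control and epileptogenic rats were -0.12 and -0.21, against -0.06 and 0.01. The 95% intervals for Ctsd (-0.79 to 0.10) and Grn (-0.82 to 0.22) show what these arrays could miss.

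Other genes listed as lysosomal, in lists chosen for this description and not limited to proteins found only there, differed by function. Of 29 further hydrolases and activators tested, 8 were higher and 0 lower (12 and 1 with the block), with a median of 0.50. Prcp among the 8, and Dnase2 among the 12 with the block, had control means of 3.90 and 4.04, below the filter. Like Cd68, they were tested only because their epileptogenic arrays are bright. The 8 include Pld4, an exonuclease of myeloid cells (2.63 ± 0.26, limma adjusted p = 0.00237), Ifi30, the thiol reductase GILT (1.97 ± 0.19, 0.00222), Scpep1, a serine carboxypeptidase (1.87 ± 0.25, 0.00539), and Manba, beta-mannosidase (1.26 ± 0.22, 0.0164). Of 27 further membrane proteins and transporters 5 were higher and 0 lower (9 and 1 with the block), with a median of 0.38. Laptm5, a transmembrane protein of blood and microglial cells, differed by 2.67 ± 0.19 (adjusted p = 0.000950), Cd9, a tetraspanin, by 2.04 ± 0.26 (0.00485), Gpnmb, a glycoprotein of lipid-laden macrophages, by 1.79 ± 0.23 (0.00430) and Slc29a3, a nucleoside transporter, by 1.59 ± 0.25 (0.0121). The share of all probe sets that were higher was 2.81%, or 7.58% with the block, and 0.827% or 8.65% were lower.

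Genes that acidify lysosomes and supply their enzymes did not pass in the fit without the block. Of 19 subunits of the proton pump (V-ATPase) 0 passed and 16 differences were negative, with a median of -0.23. Among all 18625 probe sets 11210 differences were negative, with a median of -0.11. The summed signal of the 21 pump genes with a probe set ran from 19339 to 20650 on control arrays and from 15029 to 17505 on epileptogenic arrays. That of the 40 lysosomal genes ran from 13814 to 16456 and from 34033 to 42816. Atp6v0e1 differed by 1.15 ± 0.34 (limma adjusted p = 0.108) and Atp6v1d by -0.48 ± 0.16 (0.162). With the letter as a block 1 subunit was higher and 5 were lower, against 7.58% and 8.65% of all probe sets. Of 24 genes of lysosomal enzyme sorting 0 passed, with or without the block, and the median was -0.13. M6pr, a mannose 6-phosphate receptor, differed by 0.42 (adjusted p = 0.271) and Ap3m1, a subunit of the AP-3 adaptor, by 0.32 (0.398).

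Of 24 genes of the MiT/TFE factors and mTORC1 signalling 0 passed (3 higher with the block), with a median of -0.13. For this and the next lists, 7.58% of all probe sets were higher and 8.65% lower with the block. The median of all probe sets was -0.11. Fnip2, a folliculin partner, differed by 0.66 ± 0.18 (limma adjusted p = 0.0852) and Mitf, a relative of Tfeb, by 0.91 ± 0.25 (0.0911). Of 36 autophagy genes 0 passed (1 higher and 5 lower with the block), with a median of -0.21. Wipi1, which binds phosphoinositides on forming autophagosomes, differed by 0.81 ± 0.19 (adjusted p = 0.0567) and Gabarapl1, of the LC3 family, by -0.62 ± 0.18 (0.102). Of 32 genes of endosome and lysosome fusion 1 was higher and 0 lower (2 and 0 with the block), with a median of -0.03. The 1 gene without the block is Rab32, a small GTPase of lysosome-related organelles (2.06 ± 0.25, adjusted p = 0.00405).

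**Figure D5:**
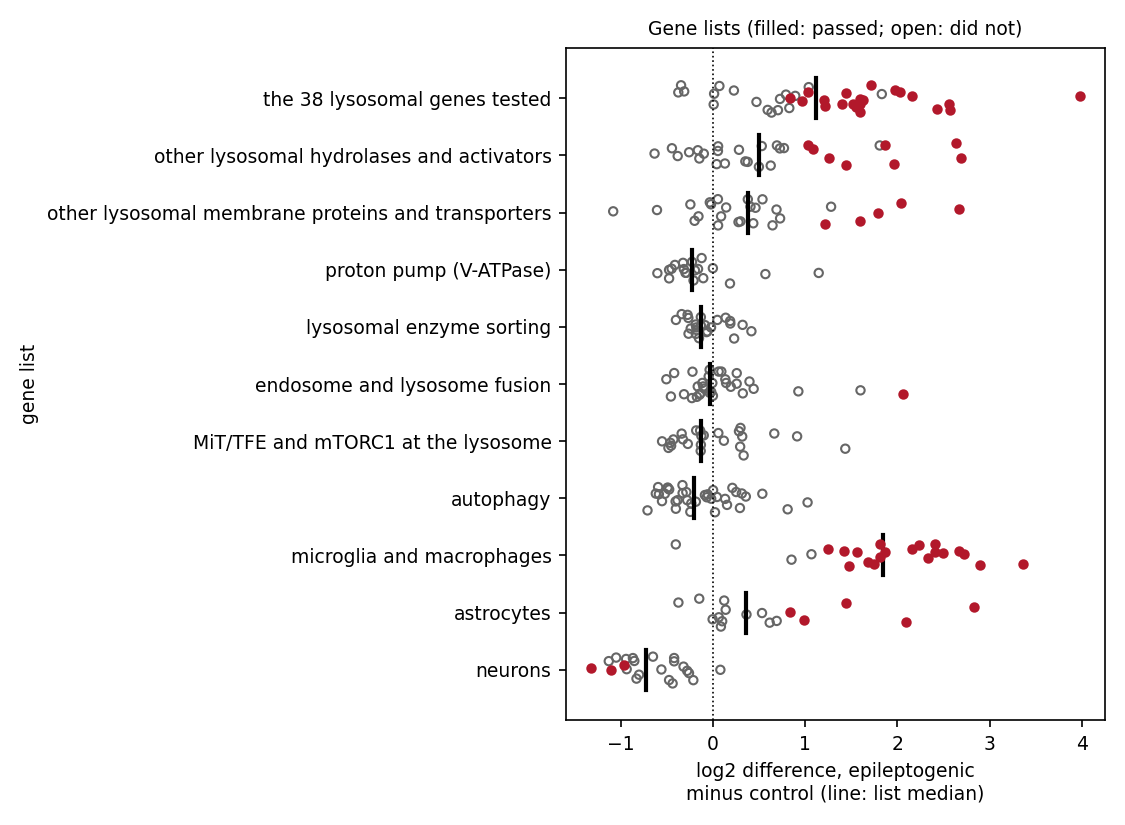
Log2 difference, epileptogenic minus control, of every tested gene (points; filled where the test was passed) in the lysosomal lists and in 3 lists of cell type markers, with the list median as a bar. The 38 lysosomal genes have a median of 1.12 (1.04 without Cd68) and the microglial markers of 1.84. The medians of the proton pump, sorting, fusion, MiT/TFE and autophagy lists lie between -0.23 and -0.03.

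Markers of several cell types differed between the same arrays. For the marker counts here and in the next paragraph, the shares of all probe sets were 2.81% higher and 0.827% lower. With the block these shares were 7.58% and 8.65%. The sums in both paragraphs cover all markers with a probe set, also those too dim to be tested. In bulk tissue fewer cells of a type and less RNA per cell cannot be told apart, and neither can more cells and more RNA per cell. Of 22 microglia and macrophage markers tested, 19 were higher and 0 lower (20 and 0 with the block), with a median of 1.84. The summed signal of the 25 such markers with a probe set was 2089 to 3144 on control and 9793 to 12864 on epileptogenic arrays, with no marker at 0. Aif1 (IBA1) differed by 2.72 ± 0.41 (limma adjusted p = 0.00893) and Ptprc (CD45) by 2.89 ± 0.53 (0.0210). None of the 42 genes is in that marker list, although Laptm5 is in it and among the further membrane proteins. Of 20 markers of infiltrating leukocytes 18 were too dim to be tested, and their sum was 257 to 435 on control and 327 to 368 on epileptogenic arrays.

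Of 17 astrocyte markers 5 were higher and 0 lower (8 and 0 with the block), among them Gfap (2.83 ± 0.29, limma adjusted p = 0.00237), with sums of 29285 to 39042 and 40362 to 52245. Of 22 neuronal markers 0 were higher and 3 lower, or 11 lower with the block, with sums of 25021 to 32065 on control and 16029 to 24356 on epileptogenic arrays. Of 8 markers of basolateral amygdala neurons 0 were higher and 2 lower (Lmo3 and Neurod6, the latter in both lists), or 4 lower with the block, with sums of 7694 to 10081 and 5420 to 6987. Rbfox3 (NeuN) differed by -0.94 ± 0.36 (adjusted p = 0.200) and Snap25 by -0.28 ± 0.22 (0.539). Among 10 markers of meninges and fibroblasts 0 passed and 6 were higher with the block, with sums of 1428 to 1731 and 1643 to 3819, and the highest was again on epileptogenic unpaired B. Of 14 oligodendrocyte markers 0 passed, or 4 higher with the block (Mbp 0.42 ± 0.27, adjusted p = 0.449), and of 15 endothelial markers 0, or 3 higher with the block. The part of these cell types in the lysosomal differences was not tested.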

How the data were processed

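Affymetrix rat genome arrays gave 1 signal intensity per probe set on a linear scale, deposited as made by the authors with MAS5 per the submitters' processing notes; its version and scaling target are not given in the sources used here. Signals were turned into log2 with no further normalization. After leaving out 57 control probe sets, 31042 remained, and the 18625 whose log2 mean exceeded their 40th percentile (4.35, a signal of 20.3) were tested with limma 3.58.1 (R 4.3.3): 4 group means, a variance trend with intensity, two-sided tests, Benjamini-Hochberg adjustment over all 18625 at 0.05. SE comes from this fit and SD from the arrays. Detection calls were not used here, and the number of arrays limits the precision.

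Probe sets were named where the platform annotation gives 1 symbol (20826; 436 had several and 9780 none). The members, gene lists and naming rule were chosen with earlier results of these data known. Named with values per array are the called genes with the 16 largest differences, the 4 lowest differences (3 negative, and Gla at 0.01) and the 3 largest interactions; other lists give at most 4 called genes with the smallest adjusted p, or 2 genes as values. The motifs and printed promoters, the Glb1 and untested genes' values per array, and Slc17a7, Lmo3, Neurod6 and Drd1 were added after values were seen.

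Per the labels the replicates are biological; the meaning of the letters A and B is not stated. Arrays with the same letter deviated together in all 6 pairs of groups (correlations 0.321 to 0.407). With 2 arrays per group the B deviation mirrors the A deviation, so these correlations are not independent of each other. The letters were taken to pair the arrays, but the main fit leaves this pairing out. Values with the letter as a block are given where they change a call or a count. Alternatives covered scaling, offset, filter, variance model, probe set choice and leaving out each array. Promoter sequences are from RefSeq (GRCr8). Figures used matplotlib 3.10.9.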

Additional observations from a re-analysis of the deposited data

Results flagged for a closer look

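Lamp1 on epileptogenic unpaired B stood apart from the other epileptogenic arrays, at 11.448 against 11.159 to 11.2 on the log2 scale. The gap was 0.857 of the group's range. Of 80 sets of 4 arrays examined (40 genes in control and in epileptogenic arrays) this was the 1 that stood out, or 1.25%, where chance gives about 1 in 20. Without this array Lamp1 differed by 0.90 between epileptogenic and control rats (limma adjusted p = 0.0527).

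Gla differed in opposite directions in the trainings. Both epileptogenic arrays were above the control mean after unpaired training (difference 0.44 ± 0.28, SE) and below it after paired training (-0.42 ± 0.28). The interaction was -0.86 ± 0.39 (unadjusted p = 0.0550 and adjusted p = 1.00, limma), so the difference between the trainings did not pass. A second Gla probe set differed by -0.02 over both trainings.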

How the results depend on the processing

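The count of 21 genes higher in epileptogenic rats over both trainings lay between 15 (no intensity trend) and 27 (replicate block) under the alternatives that kept all arrays, and between 12 and 20 when single arrays were left out. Of the 21 genes, 15 were also among those that passed without the trend and 19 with each array centred on its median, which shifted the median of all probe sets from -0.11 to -0.01. Within trainings the counts of 7 and 7 became 19 and 21 with the replicate block, 0 and 0 with median centring and 0 and 0 without the trend, and unpaired training gave 2 when only its 4 arrays were fitted. Leaving out arrays gave 0 to 4 after unpaired and 0 to 6 after paired training, and 0 to 1 for paired against unpaired controls, where 1 gene was lower without control paired B. A group left with 1 array was assumed to vary like the others. When all probe sets of a gene were averaged, Lamp1 turned to -0.30 and Gla to -0.0085, and Lgmn fell to 0.52 (adjusted p = 0.608, limma); Lamp1 and Lgmn then include probe sets too dim to be tested. When single arrays were left out, Gla ranged from -0.080 to 0.094, Acp2 from -0.18 to 0.20, Acp5 from -0.16 to 0.30 and Tfeb from -0.98 to 0.36. Calls lost under other settings were Lamp2 (no filter, no trend, additive model), Cd63 and Hexa (median centring, no trend), and Ctsb, Lamp1 and Gusb (no trend); the cause was not tested. The replicate block ended no call and added Ctsa, Ctsf, Ctsl, Glb1, Asah1 and Gm2a. Quantile normalization, an offset of 16 and array weights kept all 21 calls.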
